A study of Mus musculus with 10 samples.

Results

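The factors that write, copy, erase and shield DNA methylation were followed from the mouse MII oocyte through the 2-cell and 4-cell embryo, with and without knockdown of Ago2. The 10 genes were Dnmt1, Uhrf1, Dnmt3a, Dnmt3b, Dnmt3l, Tet1, Tet2, Tet3, Dppa3 and Zfp57, taken by gene name from an RNA-seq table of 21437 genes. Of these, 9 had a row, and the level of Dnmt1, the maintenance methyltransferase, was not analysed here. The level was FPKM, the number of sequenced fragments of a gene scaled to the length of its exons and to the mapped fragments of the library, so that levels can be set side by side between genes. Only genes that reached 1 FPKM in 2 or more libraries were tested, which left 4 of the 9 (Dnmt3a, Dnmt3l, Dppa3 and Zfp57) among 8726 genes.

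Both libraries of each of 5 groups were compared: MII oocytes, control middle 2-cell embryos, 2-cell Ago2 kd embryos, control early 4-cell embryos and 4-cell Ago2 kd embryos. The labels give the strain ICR and the tissue embryo blastomeres for all of them, with the genotype wild type for the oocytes and control embryos and Ago2-kd for the others. The methods state 7-week-old superovulated females, with oocytes from ICR mice and embryos from F1 females crossed with F1 males, so stage and strain cannot be told apart between oocytes and embryos. In the Ago2 kd groups, siRNAs against Ago2 and anti-AGO2 antibodies were injected into zygotes that already held maternal AGO2 protein, and a scrambled siRNA was the stated negative control. Whether the sequenced control embryos had been injected was not stated. Ago2 itself was not analysed here. No source states that the replicates came from separate animals, and p-values then measure only the spread between these samples.

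In mammals, DNMT3A and DNMT3B, with the cofactor DNMT3L, place methyl groups on cytosine, and UHRF1 guides DNMT1 to copy them after replication. TET dioxygenases oxidize 5-methylcytosine, which opens the way to its removal, and most of the genome loses methylation between fertilization and the blastocyst. DPPA3 (also called Stella or PGC7) shields the maternal genome from oxidation in the zygote, and ZFP57 is a zinc finger protein that binds methylated imprinting control regions and recruits TRIM28 to keep them methylated.

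The FPKM of each library summed to between 178681 and 458874, with the highest sums in the oocytes, and the depth is unknown because FPKM hold no read counts. Pearson's r between the replicates of a group, across the genes tested, which are not independent replicates, was between 0.750 and 0.913. Of genes above 10 FPKM in a library's replicate, 1.61% to 5.81% lay below 0.1 FPKM in the library itself, except in 4-cell Ago2 kd replicate 1, where 14.6% did. Between 40.2% and 52.2% of rows were listed at 0 in a library, so a 0 was not read as absence of an mRNA. Some genes that every cell uses were among the low values. Gapdh, chosen after its values were seen, lay between 0 and 0.167 FPKM over the 10 libraries, and Ogt, of the pathway list below, was listed at 0 in 8 of them. The summed FPKM of 6 oocyte markers was 4206 to 4888 in MII oocytes, 604.4 to 999.0 in 2-cell control embryos and 2.78 to 5.47 in 4-cell control embryos. Of these, Bmp15 overlapped between oocytes (605.4 and 448.9 FPKM) and 2-cell controls (787.1 and 436.1). Of 6 markers of the 2-cell stage, 5 had a row, and they summed to 18.1 to 33.9 FPKM in oocytes and to 582.3 to 668.7 in 2-cell control embryos. Among them, Tdpoz4 was higher in 4-cell controls (65.0 and 144.7 FPKM) than in 2-cell controls (48.3 and 62.3). Zscan4d was above 0 only in 2-cell control replicate 1, at 51.3 FPKM. The 5 markers of the 4-cell and later stages did not set the stages apart. They summed to 91.7 to 601.5 FPKM in oocytes, 280.1 to 337.3 in 2-cell controls and 433.1 to 665.7 in 4-cell controls. Of 8 markers of cumulus or granulosa cells, 1 had a row (Foxl2), and it was listed at 0 in the 10 libraries.

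The mRNAs of the protective factors made up nearly all of the measured signal. Dppa3 and Zfp57 together took between 96.0% and 99.9% of the summed FPKM of the 9 genes in every library. Zfp57 and Dnmt3a fell from the oocyte to the embryo, whereas no difference was called for Dppa3 or Dnmt3l. No member was called after Ago2 knockdown at either stage. Of the tested members, only Dppa3 and Zfp57 lay above 1 FPKM in every library. The plot of the members by library gives these values on a separate scale for each gene.

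**Figure D1:**
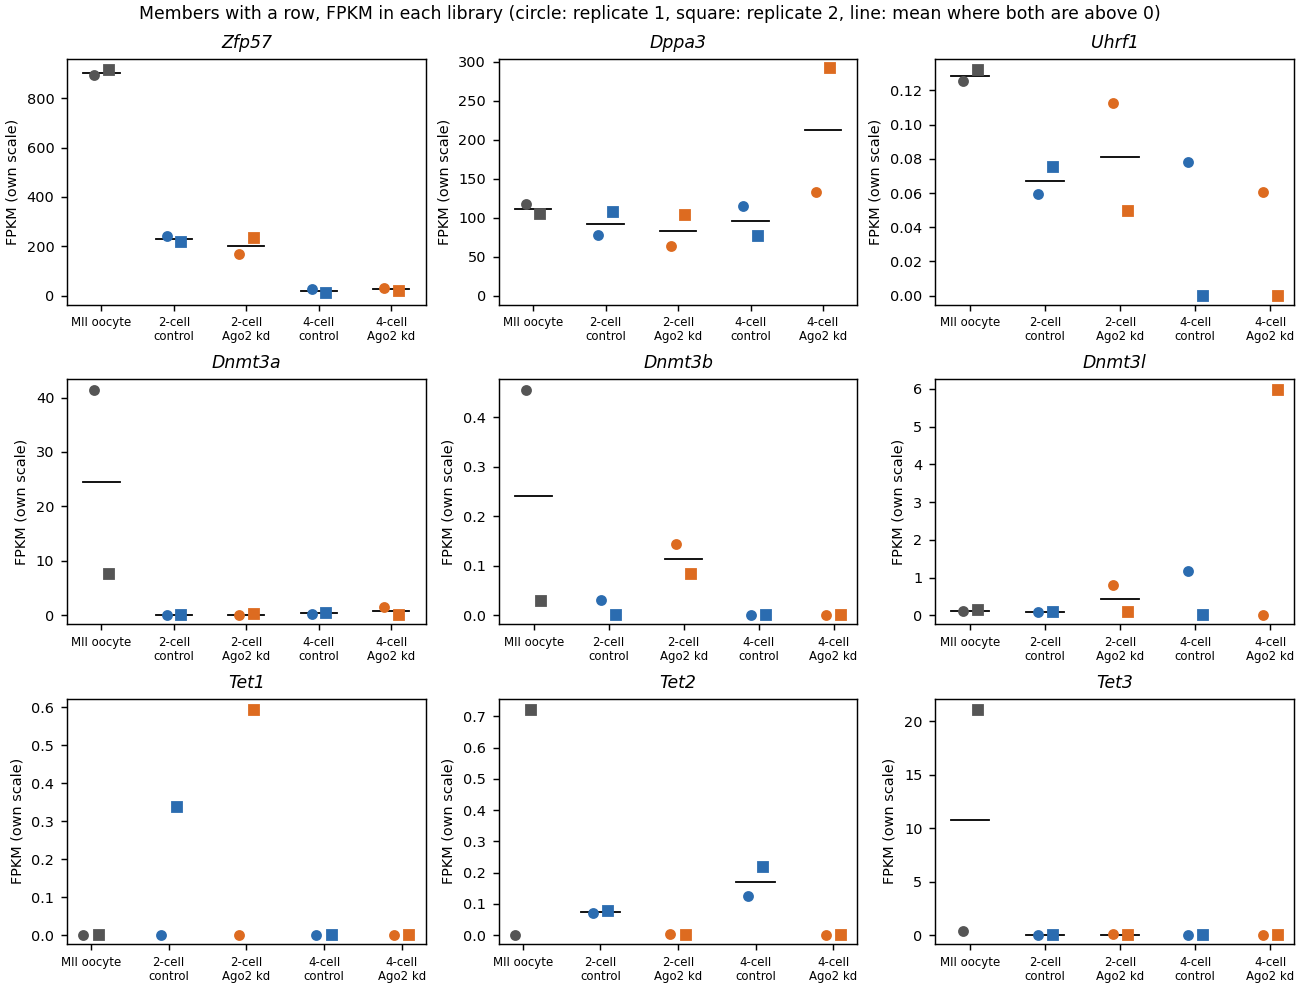
FPKM of the 9 genes with a row, each panel on its own linear axis, in the 5 groups on the horizontal axis. Circles are replicate 1, squares replicate 2, and lines the mean where both replicates are above 0. Zfp57 steps down from about 904.0 FPKM in oocytes, Dppa3 stays between 63.3 and 292.0, and high points of Dnmt3a, Dnmt3l and Tet3 are seen in single libraries or in oocytes.

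Maintenance of methylation was covered by Uhrf1 alone (chromosome 17, 56303321 to 56323486, plus strand, GRCm38). Its level was 0.125 and 0.132 FPKM in MII oocytes, 0.0595 and 0.0751 in 2-cell control and 0.113 and 0.0497 in 2-cell Ago2 kd embryos. In 4-cell embryos it was 0.0782 and 0 in the controls and 0.0608 and 0 after knockdown. Every value lay under the limit of 1 FPKM, both oocyte libraries lay above the 8 embryo libraries, and the gene was not tested. The share of all genes whose groups separate without overlap was not counted, for Uhrf1 or for any gene or marker sum below. Its paralogue Uhrf2 passed the limit and was tested among the pathway genes.

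Among the de novo methyltransferases, Dnmt3a (chromosome 12, 3806007 to 3914443, plus strand) was the member seen well above 1 FPKM in both oocyte libraries. Its level was 41.4 and 7.69 FPKM in MII oocytes and 0.0586 and 0.156 FPKM in 2-cell control embryos. It was 0.323 and 0.448 FPKM in 4-cell control embryos. The oocyte libraries lay above all embryo libraries, although they differed from each other by 5.38 times. Dnmt3a passed the limit of 1 FPKM through both oocyte libraries and 4-cell Ago2 kd replicate 1 (1.52 FPKM). Without the oocytes it would not have been tested, so its comparisons with the oocyte are not independent of the filter. On the log2(FPKM + 1) scale, which understates the change of low values, Dnmt3a fell by 4.12 from oocyte to 2-cell embryo (SE 0.74, 95% interval -5.87 to -2.37, limma adjusted p = 0.00884). From oocyte to 4-cell embryo it fell by 3.79 (SE 0.74, limma adjusted p = 0.00513), and from 2-cell to 4-cell embryo the difference was 0.32 (interval -1.43 to 2.07, limma adjusted p = 0.772). In a fit with only the groups compared, the drops were no longer called (limma adjusted p = 0.0862 and 0.0561). The libraries are bulk, and FPKM are scaled to the mapped fragments of each, so a difference in FPKM is not a difference in mRNA per cell or embryo.

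After Ago2 knockdown, Dnmt3a was at 0.0646 and 0.231 FPKM in 2-cell and at 1.52 and 0.163 FPKM in 4-cell embryos. These values overlapped with the controls at both stages. Apart from the 1.52 FPKM, all of them and the controls lay under the limit of 1 FPKM, so an unchanged level cannot be read from them. The log2 differences were 0.05 (interval -1.70 to 1.80) and 0.31 (interval -1.44 to 2.06), and the limma adjusted p was 1 for both.

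Dnmt3b (chromosome 2, 153649450 to 153687730, plus strand) was listed at or below 0.455 FPKM in every library, under the limit of 1 FPKM, and was not tested. It was at 0.455 and 0.0289 FPKM in oocytes and at 0.0305 and 0 in 2-cell control embryos. It was at 0.144 and 0.0832 FPKM in 2-cell Ago2 kd embryos and was listed at 0 in the 4 libraries of 4-cell embryos. The 2-cell Ago2 kd libraries lay above the 2-cell controls, at levels under the limit for testing, and no difference is read from them.

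Dnmt3l (chromosome 10, 78041947 to 78063622, plus strand), which has no catalytic activity of its own, passed the limit through single libraries. It was at 0.118 and 0.132 FPKM in oocytes, at 0.0820 and 0.0947 in 2-cell controls and at 0.801 and 0.0818 in 2-cell Ago2 kd embryos. In 4-cell embryos it was at 1.16 and 0 FPKM in the controls and at 0 and 5.97 after knockdown. In each of these last 3 groups a high replicate stood beside a low replicate. The log2 differences were -0.05 from oocyte to 2-cell embryo (SE 0.85) and 0.84 between 4-cell Ago2 kd and control embryos (SE 0.85, limma adjusted p = 0.754). Leaving out 4-cell Ago2 kd replicate 2 turned the latter to -0.56.

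The TET dioxygenases were listed under the limit of 1 FPKM in every embryo library, and a listed 0 or low value can also be a failed estimate. Tet3 (chromosome 6, 83362373 to 83459084, minus strand), the enzyme that oxidizes the paternal genome of the zygote, was at 0.402 and 21.1 FPKM in oocytes. It was at 0.00177 and 0.00211 FPKM in 2-cell controls, at 0.0852 and 0.0247 in 2-cell Ago2 kd embryos, and was listed at 0 in all 4-cell libraries. The 2 oocyte libraries, which differed by 52.5 times, lay above all embryo libraries, but 1 library over 1 FPKM was too few for a test.

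Tet1 (chromosome 10, 62804570 to 62908996, minus strand) was above 0 in only 2 libraries. These were replicate 2 of the 2-cell controls, at 0.338 FPKM, and replicate 2 of the 2-cell Ago2 kd embryos, at 0.593. Tet2 (chromosome 3, 133463679 to 133545139, minus strand) was at 0 and 0.721 FPKM in oocytes. It was at 0.0701 and 0.0776 in 2-cell and 0.124 and 0.219 in 4-cell controls, against 0.00260 and 0 in 2-cell and 0 and 0 in 4-cell Ago2 kd embryos. At both stages the Ago2 kd libraries lay below the controls, but these levels near 0 were not tested and no knockdown effect is read from them.

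Because AGO2 acts on mRNAs through small RNAs bound to it, matches to a microRNA family known to target Dnmt3 and Tet mRNAs were counted. The mature sequences of the miR-29 family (RefSeq, build GRCm38.p6) share the same seed, bases 2 to 8, here in capitals. The mature sequences lie on chromosome 6 for miR-29a and on chromosome 1 for miR-29b and miR-29c.
miR-29a-3p: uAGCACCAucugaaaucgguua
miR-29b-3p: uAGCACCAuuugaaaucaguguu
miR-29c-3p: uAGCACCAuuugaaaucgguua

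The complement of the seed, TGGTGCT, was searched on the sense strand in the longest annotated 3′ untranslated region of each gene (GENCODE M21, GRCm38). It was found 5 times in the 6696 bases of Dnmt3a, 8 times in the 5669 bases of Tet3, 7 times in Tet1 and 5 times in Tet2. Dnmt3b and Dppa3 held 1 match each, and Dnmt1, Uhrf1, Dnmt3l and Zfp57 held none. Across 11483 genes of the table with such a region, 14.7% held at least 1 match, at 0.113 matches per kilobase, and of 303 genes whose region was at least as long as that of Tet3, 53.5% did. The density was 0.747 per kilobase in Dnmt3a, 0.751 in Dnmt3b, 0.879 in Tet1, 1.41 in Tet3 and 1.64 in Tet2. It was highest in Dppa3, at 3.75 per kilobase, from 1 match in 267 bases. The levels of these microRNAs were not analysed here, and a match is a description of the sequence and not a site in use.

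The matches in the tested members are shown with their flanks, the match in capitals. Of the tested members with a match, Dppa3 lay above 1 FPKM in every embryo library. Dnmt3a reached 1 FPKM in embryos only in 4-cell Ago2 kd replicate 1, so its level could hardly be compared after knockdown. The lines give, in order, Dnmt3a at chr12:3908561-3908589, chr12:3908988-3909016, chr12:3910824-3910852, chr12:3911394-3911422 and chr12:3911463-3911491, and Dppa3 at chr6:122630081-122630109, all on the plus strand of GRCm38.
Dnmt3a match 1: cgacttcataaTGGTGCTttcaaaacagc
Dnmt3a match 2: acaaaatgtacTGGTGCTttctgtctaag
Dnmt3a match 3: tcagctgggccTGGTGCTcccgtgcctgg
Dnmt3a match 4: ggggaggtagcTGGTGCTagcaccagggt
Dnmt3a match 5: gggtcccaagcTGGTGCTaattcctctca
Dppa3 match 1: taaactttttcTGGTGCTgggaaatctta

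Among the protective factors, Zfp57 (chromosome 17, 37001163 to 37010635, plus strand) showed the widest range. It was at 894.1 and 913.9 FPKM in MII oocytes, at 243.6 and 216.9 in 2-cell controls and at 26.1 and 12.9 in 4-cell controls. These 3 groups did not overlap. By level, Zfp57 was gene 68 and 67 of 21437 in the oocyte libraries and gene 1686 and 2331 in the 4-cell control libraries. From oocyte to 4-cell embryo it fell by 5.55 on the log2(FPKM + 1) scale (SE 0.40, interval -6.50 to -4.59, limma adjusted p = 7.82e-05). From 2-cell to 4-cell embryo it fell by 3.57 (SE 0.40, limma adjusted p = 0.000793), and both calls held under all 19 alternatives.

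The earlier step of Zfp57, from oocyte to 2-cell embryo, was a log2 difference of -1.97 (SE 0.40, interval -2.92 to -1.02, limma adjusted p = 0.0147). This call depended on the scaling. The FPKM of all genes summed to 450124 and 458874 in the oocyte libraries and to 196312 and 203645 in the 2-cell control libraries. With each library scaled to the same total FPKM the difference was -0.79 (limma adjusted p = 0.290), with the same median of expressed genes -1.28 (0.0742) and after quantile normalization -0.76 (0.360). Leaving out either oocyte replicate or either 2-cell control replicate also ended the call (limma adjusted p = 0.0550 to 0.0799).

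In Ago2 kd embryos Zfp57 was at 167.4 and 233.8 FPKM at the 2-cell and at 33.1 and 20.5 FPKM at the 4-cell stage. At both stages these values overlapped with the controls. The log2 difference was -0.22 at the 2-cell stage (interval -1.17 to 0.74, limma adjusted p = 1) and 0.48 at the 4-cell stage (interval -0.47 to 1.44, limma adjusted p = 0.668). In order of level, the MII oocytes stood highest, followed by the 2-cell groups and then the 4-cell groups, and within a stage the neighbouring groups did not differ beyond their spread.

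Dppa3 (chromosome 6, 122626410 to 122630272, plus strand) stayed among the abundant mRNAs in every group. It was at 117.7 and 105.2 FPKM in oocytes, at 77.1 and 107.4 in 2-cell controls and at 115.2 and 76.6 in 4-cell controls. In every library it lay at or above percentile 96.5 of the table, and the 3 groups overlapped. The log2 differences between the control stages were -0.29, 0.04 and -0.24, with SE 0.46 each and limma adjusted p of 0.703 or more, and their direction turned with the scaling: with the same total FPKM they were 0.88, -0.30 and 0.58.

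After Ago2 knockdown Dppa3 was at 63.3 and 103.4 FPKM in 2-cell embryos and at 132.3 and 292.0 FPKM in 4-cell embryos. The 2-cell values overlapped with the controls, and both 4-cell values lay above both controls, by a margin that rested mostly on replicate 2. The log2 difference was -0.17 at the 2-cell stage (interval -1.27 to 0.93, limma adjusted p = 1) and 1.06 at the 4-cell stage (SE 0.46, interval -0.05 to 2.16, limma adjusted p = 0.345). Without replicate 2 of the 4-cell Ago2 kd embryos the latter was 0.49, and without replicate 1 it was 1.63. The difference between the effects at the 2 stages was 1.23 (interval -0.33 to 2.79, limma adjusted p = 0.501).

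**Figure D2:**
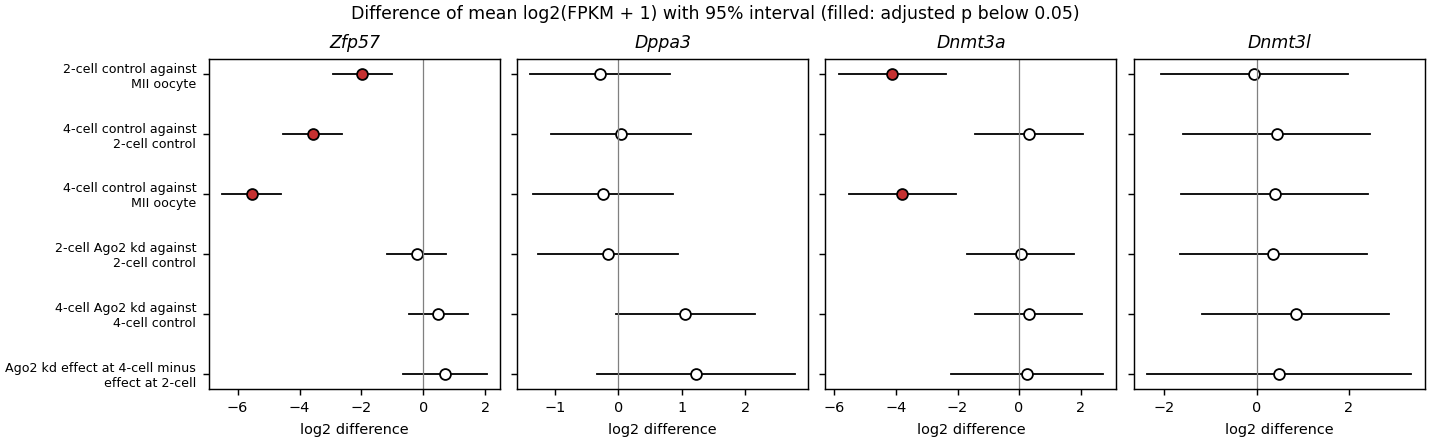
Differences of mean log2(FPKM + 1) for the 4 tested members in the 6 comparisons, with 95% intervals as lines, on a separate horizontal axis for each gene. Filled points have a limma adjusted p below 0.05: these are the drops of Zfp57 in the 3 stage comparisons and of Dnmt3a against the oocyte, and all knockdown intervals cross 0.

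Without knowing how shared reads were assigned, the level of Dppa3 cannot be fully read apart from that of Dppa3-ps. This is a transcribed processed pseudogene on chromosome X (37625647 to 37626097, minus strand). Aligned end to end, the 451 bases of the pseudogene transcript matched the Dppa3 transcript at 443 positions (98.2%), with 8 mismatches, no gap and a longest identical run of 86 bases. The Dppa3 transcript is longer, at 833 bases, and the aligned part starts at its base 116. Its 3′ untranslated region, from base 567, lies outside the aligned part. How reads that match both copies were assigned was not stated. The 120 bases of the coding region with the most differences are shown for both (GENCODE M21 transcripts), with the 5 differing bases in capitals.
Dppa3: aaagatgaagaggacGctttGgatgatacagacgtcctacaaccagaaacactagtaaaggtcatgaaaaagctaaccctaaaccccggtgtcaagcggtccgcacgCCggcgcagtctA
Dppa3-ps: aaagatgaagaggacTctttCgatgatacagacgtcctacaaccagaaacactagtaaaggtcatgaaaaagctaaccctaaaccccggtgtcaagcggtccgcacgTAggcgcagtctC

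Dppa3-ps was listed at a level similar to Dppa3, with a ratio of pseudogene to gene between 0.815 and 1.45 over the libraries. It was at 112.0 and 139.5 FPKM in oocytes, at 106.9 and 138.9 in 2-cell controls and at 101.8 and 76.8 in 4-cell controls. In Ago2 kd embryos it was at 84.3 in both 2-cell libraries and at 191.9 and 325.7 FPKM in 4-cell libraries. The 4-cell Ago2 kd values again lay above both controls, as for Dppa3. The log2 difference at the 4-cell stage was 1.49 (SE 0.34, interval 0.69 to 2.29, unadjusted p = 0.00315, limma adjusted p = 0.0666), and the adjusted p ran from 0.0167 to 0.382 over 17 alternatives, below 0.05 in 4 of them. With the FPKM of gene and pseudogene summed, an alternative added after seeing the data, the difference was 1.29 (limma adjusted p = 0.137).

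The 2 equal values of Dppa3-ps belong to a stretch of repeated values in the table. Of its last 196 rows, 193 held the same value above 0 in both 2-cell Ago2 kd libraries, whereas in the other groups only 1 such row was found, in the oocytes. They include Dppa3-ps and no member. The fit took the equal 2-cell Ago2 kd values of Dppa3-ps as 2 replicates without spread. The SE and p-values of Dppa3-ps given above can therefore be too small.

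**Figure D3:**
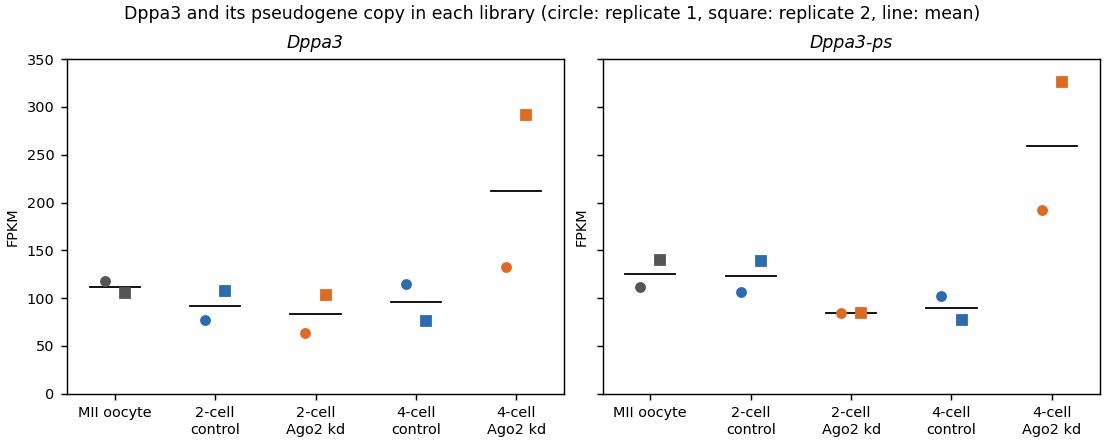
FPKM of Dppa3 and of its pseudogene Dppa3-ps in the 5 groups, on a shared linear axis; circles are replicate 1, squares replicate 2 and lines the mean. In both panels the 4-cell Ago2 kd libraries are the highest, from 132.3 to 325.7 FPKM, and the 2 points of Dppa3-ps in 2-cell Ago2 kd embryos coincide.

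Counted over the 4 tested members, 2 fell and none rose from oocyte to 2-cell embryo, beside 14.2% of all tested genes called lower and 6.54% called higher. With libraries scaled to the same total FPKM, the split over all genes moved from 571 higher and 1240 lower to 954 higher and 633 lower, with the same median of expressed genes to 761 and 848, and after quantile normalization to 707 and 782, and 1 member was called. From 2-cell to 4-cell embryo 1 member fell (17.5% of all genes lower, 21.1% higher), and from oocyte to 4-cell embryo 2 fell (26.3% lower, 22.0% higher; 1923 higher and 2299 lower, against 2206 and 1716 at the same total FPKM). With 4 members, these counts are too small to set apart from the background. Dnmt3a, 1 of the 2 that fell from the oocyte, passed the filter only with its oocyte values.

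At an adjusted p below 0.05, no member was called by limma after Ago2 knockdown in 2-cell embryos, where 0.550% of all genes were, or in 4-cell embryos, where 4.00% were. At an unadjusted p below 0.05 the count of members was also 0 at both stages, beside 5.96% and 15.4% of all genes. The 4-cell background held 107 genes called higher and 242 lower, and 134 and 191 with libraries scaled to the same median of expressed genes. For the difference between the effects at the 2 stages the count was 0, beside 2.28% of all genes. The knockdown comparisons share their control libraries with the stage comparisons.

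The wider pathway was described with a list of 66 genes in 5 role groups, of which 56 had a row and 39 were tested. From oocyte to 2-cell embryo 9 of the 39 fell and 2 rose (23.1% and 5.13%, beside 14.2% and 6.54% of all genes), with a median log2 difference of -1.01 against -0.06 over all genes. From 2-cell to 4-cell embryo 7 rose and 2 fell (17.9% and 5.13%, beside 21.1% and 17.5% of all genes), with a median of 0.88 against 0.24. From oocyte to 4-cell embryo 5 rose and 6 fell (12.8% and 15.4%, beside 22.0% and 26.3% of all genes), with a median of 0.58 against 0. In the last 2 comparisons the shares of the list thus lay under those of all genes in both directions.

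Of 7 tested methyltransferase cofactors, 3 fell and none rose from oocyte to 2-cell embryo, and 3 rose and 1 fell from 2-cell to 4-cell embryo. Over all genes 14.2% fell and 6.54% rose at the earlier step, and 17.5% fell and 21.1% rose at the later step, and groups of 4 to 10 genes are too small to set apart from these shares. Mat2b, the regulatory subunit of the enzyme that makes S-adenosylmethionine, was at 2971 and 2257 FPKM in oocytes, at 1016 and 1093 in 2-cell controls and at 197.8 and 203.3 in 4-cell controls. It fell at both steps, with log2 differences of -1.30 and -2.39 (limma adjusted p = 0.0120 and 0.000605), but the earlier step turned to 0.01 under quantile normalization. Hells, a chromatin remodeller that supports DNA methylation, was at 69.0 and 55.9 FPKM in oocytes, at 0.119 and 0.355 in 2-cell and at 12.3 and 8.38 in 4-cell controls. In 4-cell Ago2 kd embryos its replicates stood at 0.114 and 11.6 FPKM. Uhrf2, the paralogue of Uhrf1, rose from 0.604 and 0.940 FPKM in 2-cell to 4.91 and 11.1 FPKM in 4-cell controls, a log2 difference of 2.26 (limma adjusted p = 0.0101).

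Of 10 tested genes of imprint protection and the KAP1 complex, 3 fell and 1 rose from oocyte to 2-cell embryo, and 3 rose and none fell to the 4-cell embryo. These are 30% and 10% at the earlier step, beside 14.2% and 6.54% of all genes, and 30% and 0% at the later step, beside 21.1% and 17.5%. Atrx, a remodeller that deposits histone H3.3 at heterochromatin, fell from 353.3 and 132.2 FPKM in oocytes to 4.71 and 6.85 in 2-cell controls, a log2 difference of -5.02 (limma adjusted p = 0.00232). Arid4a was at 7.46 and 14.7 FPKM in oocytes and was listed at 0 in the 8 embryo libraries. Cbx5, which encodes the heterochromatin protein HP1 alpha, rose by 1.81 to 13.8 and 9.13 FPKM in 2-cell controls (limma adjusted p = 0.0393). Rbbp4, a histone-binding subunit of several chromatin complexes, rose by 2.60 from 2-cell to 4-cell controls, at 90.7 and 62.0 FPKM (limma adjusted p = 0.0299), and Naa10, an N-terminal acetyltransferase, rose by 2.45, at 9.22 and 24.4 FPKM (limma adjusted p = 0.0462).

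Of 10 tested TET partners and base excision repair genes, 2 fell and 1 rose from oocyte to 2-cell embryo, and 1 rose and 1 fell to the 4-cell embryo. The shares were 20% lower and 10% higher at the earlier step, beside 14.2% and 6.54% of all genes, and 10% in each direction at the later step, under the 17.5% and 21.1% of all genes. The DNA glycosylase Smug1 was at 61.4 and 64.5 FPKM in oocytes and was listed at 0 in all embryo libraries. The DNA glycosylase Neil3 fell at both steps, from 424.6 and 351.9 FPKM in oocytes to 35.1 and 56.9 in 2-cell and 0.0182 and 0 in 4-cell controls. The endonuclease Apex1 was at 0.425 and 0 FPKM in oocytes, at 0.256 and 0.132 in 2-cell and at 20.2 and 7.10 in 4-cell controls, a rise of 3.46 on the log2 scale over the second step (limma adjusted p = 0.00405). Gadd45g, a stress-induced gene tied to repair-based demethylation, was listed at 0 in oocytes and stood at 4.23 and 21.2 FPKM in 2-cell controls.

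Of 8 tested genes of histone marks that guide DNA methylation, 1 was called, lower than in the oocyte at both embryo stages. This is 12.5% lower from oocyte to 2-cell and to 4-cell embryo, beside 14.2% and 26.3% of all genes. Kdm1b, a histone H3K4 demethylase needed to set maternal imprints in the growing oocyte, fell from 17.9 and 9.51 FPKM in oocytes to 0.103 and 0.132 in 2-cell controls, a log2 difference of -3.66 (limma adjusted p = 0.00444). None of the 4 tested methyl-CpG binding genes was called in any comparison, beside the shares of all genes given above. At an unadjusted p below 0.05 limma gave 1 lower from 2-cell to 4-cell embryo and 0 in the other 5 comparisons. That 1 is 25% of the group, beside 46.9% of all genes in either direction. Of the 31 stage calls of the named pathway genes, 20 held under all 19 alternatives. The 11 that did not were Hells, Mat2b, Cbx5, Neil3 and Gadd45g from oocyte to 2-cell embryo, Uhrf2, Hells, Rbbp4 and Naa10 from 2-cell to 4-cell embryo, and Cbx5 and Naa10 from oocyte to 4-cell embryo.

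**Figure D4:**
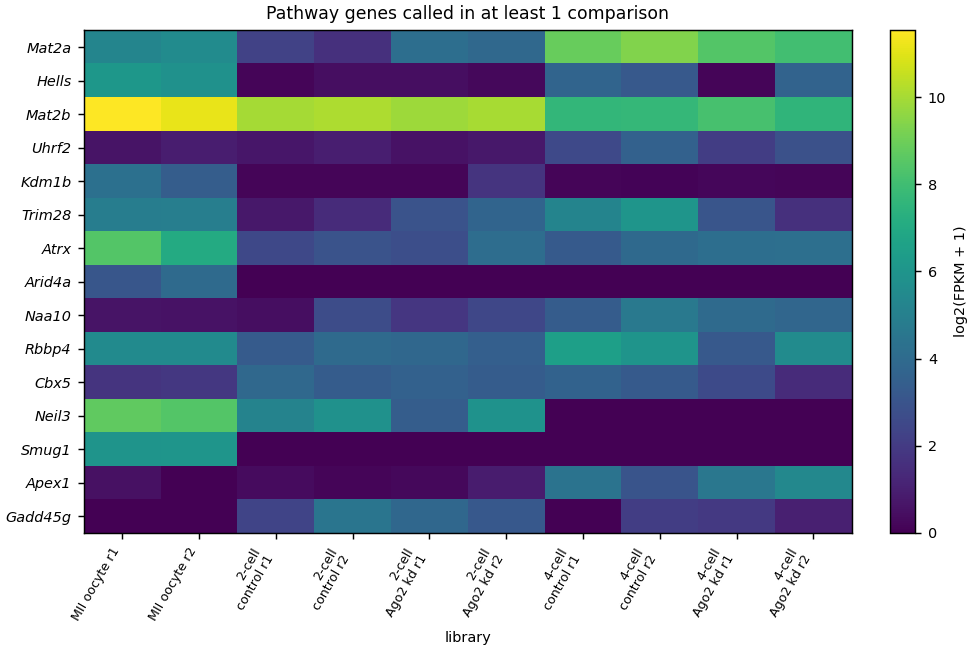
Colour map of log2(FPKM + 1) for the 15 pathway genes called in at least 1 comparison (vertical axis) in the 10 libraries (horizontal axis, r1 and r2 the replicates). Atrx, Neil3, Smug1 and Kdm1b are highest in the oocyte columns, and Mat2a, Trim28 and Apex1 are higher in 4-cell than in 2-cell control columns.

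After Ago2 knockdown, no pathway gene was called at the 2-cell stage by limma (0.550% of all genes were), and at an unadjusted p below 0.05 there were 3, all higher (7.69%, beside 5.96% of all genes). At the 4-cell stage 1 of 39 was called (2.56%, beside 4.00% of all genes), and at an unadjusted p below 0.05 there were 6, with 2 higher and 4 lower (15.4%, beside 15.4% of all genes). The shares at the 4-cell stage did not exceed those of all genes. The called gene was Trim28, which encodes the corepressor KAP1 that ZFP57 recruits to imprints. It was at 29.0 and 29.3 FPKM in MII oocytes, at 0.698 and 1.64 in 2-cell controls and at 35.8 and 63.6 in 4-cell controls. In Ago2 kd embryos it was at 6.82 and 12.0 FPKM at the 2-cell and at 7.22 and 2.04 FPKM at the 4-cell stage. The knockdown libraries thus lay above both controls at the 2-cell stage and below both at the 4-cell stage. How many of all genes separate in this way was not counted.

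The log2 difference of Trim28 was 2.25 at the 2-cell stage (SE 0.60, interval 0.83 to 3.67, unadjusted p = 0.00723, limma adjusted p = 0.329). At the 4-cell stage Trim28 fell by 3.29 (SE 0.60, interval -4.71 to -1.87, limma adjusted p = 0.0316). The difference between these effects was -5.54 (SE 0.85, limma adjusted p = 0.0225). The 4-cell call was lost under 15 of 19 alternatives (adjusted p 0.0198 to 0.324) and that of the difference under 9 (0.0150 to 0.0730), and the direction was the same in all of them. Among these alternatives was the replicate block (0.0650 and 0.0540). Leaving out any of the 10 libraries except 4-cell Ago2 kd replicate 1 also ended the 4-cell call.

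Mat2a, the catalytic subunit of the S-adenosylmethionine synthesis enzyme, had the second called difference between the effects. It was at 36.6 and 46.6 FPKM in oocytes, at 3.85 and 2.06 in 2-cell controls and at 466.0 and 650.7 in 4-cell controls. In Ago2 kd embryos it was at 17.1 and 14.0 FPKM at the 2-cell and at 348.8 and 263.8 FPKM at the 4-cell stage. The groups did not overlap at either stage, with the knockdown above the controls at the 2-cell and below them at the 4-cell stage. The log2 differences were 2.096 (SE 0.36, limma adjusted p = 0.0885) and -0.86 (SE 0.36, limma adjusted p = 0.327), and the difference between them was -2.95 (SE 0.51, limma adjusted p = 0.0375), a call lost under 13 of 19 alternatives (adjusted p 0.0340 to 0.0980). Over the same libraries, the summed markers of the 2-cell stage were 282.1 to 458.1 FPKM in 2-cell Ago2 kd and 582.3 to 668.7 in 2-cell control embryos. They were 80.7 to 176.8 FPKM in 4-cell Ago2 kd and 71.8 to 146.3 in 4-cell control embryos. Most of each 4-cell sum was Tdpoz4, at 154.7 and 53.5 FPKM after knockdown and 65.0 and 144.7 in the controls. Tdpoz4 did not mark the 2-cell stage here. The 2-cell sums include Tcstv3, which is among the rows with repeated 2-cell Ago2 kd values. Without it, an alternative added after seeing the data, the 4 other markers summed to 148.0 and 324.0 FPKM in 2-cell Ago2 kd and to 309.1 and 362.7 in 2-cell control embryos, and the groups overlapped. The 6 oocyte markers summed to 568.4 to 638.1 FPKM in 2-cell Ago2 kd and to 604.4 to 999.0 in 2-cell control embryos. In 4-cell embryos they summed to 6.91 to 30.9 FPKM after knockdown and to 2.78 to 5.47 in the controls, with no overlap. The 30.9 FPKM of Ago2 kd replicate 1 was mostly Zp3 (23.5 FPKM), which was listed at 0 in the other 4-cell libraries. Gdf9 overlapped (2.98 and 3.96 FPKM after knockdown, 5.40 and 1.13 in the controls). Mos did not (4.39 and 2.95 against 0.0699 and 1.57). The 5 markers of the 4-cell and later stages summed to 336.0 to 353.2 FPKM in 2-cell Ago2 kd embryos, to 280.1 to 337.3 in their controls, to 384.6 to 506.2 in 4-cell Ago2 kd embryos and to 433.1 to 665.7 in theirs. The part of these marker levels in the differences of Trim28 and Mat2a was not tested.

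**Figure D5:**
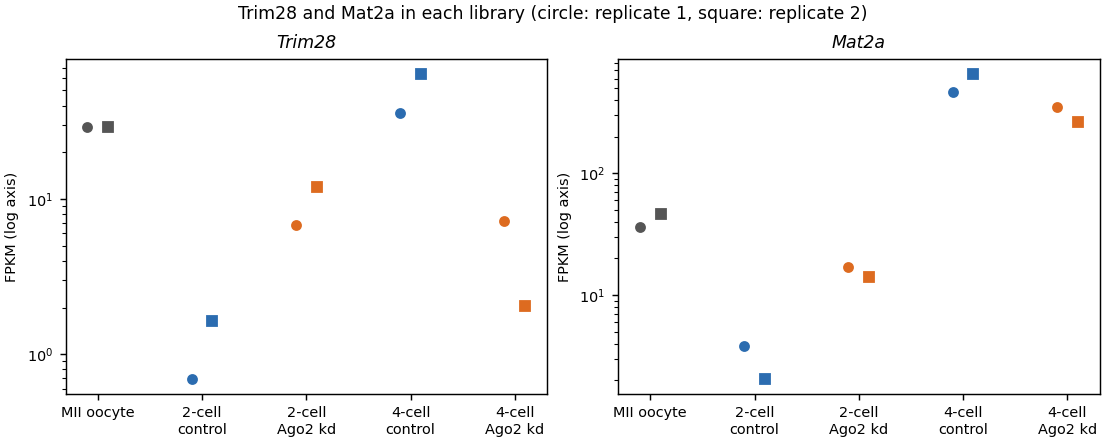
FPKM of Trim28 and Mat2a in the 5 groups, each on its own log axis; circles are replicate 1 and squares replicate 2. In both genes the Ago2 kd points lie above the controls at the 2-cell stage and below them at the 4-cell stage.

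As a description over the 10 libraries, the genes whose log2(FPKM + 1) followed a member most closely were listed. For Zfp57 these were D6Ertd527e (Pearson's r 0.991) and Pdzd2 (0.990), among 721 genes with r above 0.9. For Dnmt3a they were Rora (0.979) and Mgat4b (0.978), and for Dppa3 Gm10053 (0.971) and Fmr1nb (0.929), with 8 genes above 0.9. For Dnmt3l, Gm17214 (0.989) and Ndufb9 (0.961) were closest. The 10 libraries come from 5 groups, so the points behind these values are not independent.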

How the data were processed

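The 10 RNA-seq libraries fell into 5 groups of 2 by their sample labels. The reads were trimmed with Trim Galore and aligned to GRCm38 with HISAT2 (version 2.1.0 in the submitters' processing notes, which also name CASAVA 1.4), and the authors deposited FPKM computed by StringTie, 1 value per gene name and library. FPKM hold no read counts, so depth is unknown and no counting interval is given; precision was judged from the spread between replicates. The DESeq2 test of the study needs counts and was not used.

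FPKM were analysed as log2(FPKM + 1) in R 4.3.3 with limma 3.58.1 (1 mean per group, 10 libraries, 5 residual degrees of freedom, variance trend, two-sided), over the 8726 genes that reached 1 FPKM in 2 or more libraries, with Benjamini-Hochberg adjustment over all of them; called means an adjusted p below 0.05. The fit was tested on simulated data. Positions and transcripts came from GENCODE M21, and the pseudogene was aligned with Biopython 1.88. Python 3.11.15, pandas 2.3.3, numpy 2.4.6 and matplotlib 3.10.9 were used. Named pathway genes were those called in any comparison, at most 6 per role group by largest difference. Alternatives were a pseudocount of 0.1, no filter, other scalings, the replicate block, fits with only the groups compared, and leaving out each library. The members and lists were chosen with earlier results of these data known. The levels of Dnmt1 and Ago2 were not analysed here.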

Additional observations from a re-analysis of the deposited data

Results flagged for a closer look

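For 2 genes of the wider pathway the effect of Ago2 knockdown differed between the stages by the test of that difference, and for no member did it. The 4-cell effect minus the 2-cell effect was -5.54 on the log2(FPKM + 1) scale for Trim28 (limma adjusted p = 0.0225) and -2.95 for Mat2a (limma adjusted p = 0.0375). In each gene both Ago2 kd libraries lay above both controls at the 2-cell stage and below both at the 4-cell stage. The share of all genes with such a separation was not counted. The call was lost under 9 of 19 alternatives for Trim28 and under 13 of 19 for Mat2a, and 2.28% of all tested genes passed the same test.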

How the results depend on the processing

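Over 19 alternatives, of which 2 were added after seeing the data (without the rows with repeated 2-cell Ago2 kd values, and Dppa3 summed with its pseudogene), no member became called after knockdown. The count of members called from oocyte to 2-cell embryo moved from 2 to 1 with libraries scaled to the same total FPKM or median, after quantile normalization, with only the groups compared, and to between 1 and 2 without each replicate in turn. From oocyte to 4-cell embryo it moved from 2 to 1 with only the groups compared. The cause was not tested. Scaling moved the median difference over all genes from oocyte to 2-cell embryo from -0.06 to 0.24 (same total FPKM), from 2-cell to 4-cell embryo from 0.24 to 0.05 (same total), 0.01 (same median) and 0.02 (quantile), and from oocyte to 4-cell embryo from 0 to 0.32 (same total). Differences that were not called changed sign: with the same total FPKM Dnmt3l from oocyte to 2-cell embryo was 0.057 and Dppa3 over the 3 stage comparisons 0.88, -0.30 and 0.58; with the same median 0.017 and 0.40, -0.38 and 0.018; after quantile normalization Dppa3 was 0.85, -0.55 and 0.30, and Mat2b from oocyte to 2-cell embryo, called before, was 0.0062; summed with the pseudogene Dppa3 from 2-cell to 4-cell embryo was -0.22.

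Without each replicate in turn, the ranges that crossed 0 were as follows. For Dppa3 they were -0.25 to 0.34 from 2-cell to 4-cell embryo, -0.53 to 0.049 from oocyte to 4-cell embryo and -0.52 to 0.18 after knockdown at the 2-cell stage. For Dnmt3l they were -0.12 to 0.99 and -0.17 to 0.94 in the same stage comparisons, -0.0087 to 0.73 and -0.56 to 2.24 after knockdown at the 2-cell and 4-cell stage and -0.92 to 1.88 for the difference between these effects. For Dnmt3a they were -0.055 to 0.15, -0.25 to 0.87 and -0.30 to 0.82 in the knockdown comparisons and their difference. For Zfp57 it was -0.45 to 0.024 after knockdown at the 2-cell stage. Same-numbered libraries did not deviate together (r -0.09 to 0.09 over 10 pairs of groups). With 2 replicates per group, this cannot tell whether same-numbered libraries were handled together. With the replicate block the members called were 2, 1 and 2 in the stage comparisons and 0 after knockdown, as without it. The calls of Trim28 and of both differences between effects were lost with the block. Over all genes, calls at the 2-cell and 4-cell stage after knockdown went from 48 and 349 to 23 and 245 with the block, to 0 and 0 by limma with only the groups compared (542 and 950 at an unadjusted p below 0.05), and to 132 and 370 with no filter. Without each replicate in turn they ran from 34 to 105 and from 257 to 663, those of the difference between the effects from 163 to 482 (199 with all libraries), and those from oocyte to 2-cell embryo from 1034 to 1913 (1811 with all libraries). Depth is unknown, and the 5 members under the limit of 1 FPKM were fitted only with no filter, where none was called.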
